A study of Anguilla anguilla with 24 samples.

Results

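RNA was sequenced from the liver and the brain of the same 12 European eels (Anguilla anguilla), and the question here was whether an eel that stood above or below its group in the liver also did so in the brain. The 24 libraries formed 4 groups of 6: livers of eels fed gold nanoparticles for 21 days, livers of control eels, brains of the gold-fed eels and brains of the control eels. Eels 7 to 12 were gold-fed and eels 1 to 6 were controls, and the individual named in the labels paired each liver with its brain. The sources used here do not state the dose, the age of the animals or how they were housed. The features were contigs, that is assembled transcript sequences, and a label such as sod1.2.3 means the second of 3 contigs that carry the name sod1. Of 50640 contigs, 24799 had a mean of at least 1 CPM (read counts scaled to the size of the library) in both organs and were tested, and 10226 of these carried a gene or protein name rather than a contig or locus number. At that limit, the named contig C42S2.2.4 (1.0001 CPM in liver, 14.9 CPM in brain, r = 0.402) lay just inside and lig1 (0.9995 CPM in liver, 10.9 CPM in brain, r = 0.572) just outside.

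For each contig the mean of its own group was subtracted from log2(CPM + 0.5), so that mean differences between organs or diets could not contribute. Any differences among eels of a group in their response to the diet remain in the deviations. The 12 liver deviations were correlated with the 12 brain deviations of the same eels. The p-value came from an exact two-sided permutation test that exchanged brains among the eels of a group over all 518400 arrangements, with Benjamini-Hochberg adjustment over all contigs tested. A contig was called together when r was positive and apart when r was negative, at an adjusted p under 0.05. The shallowest library had 50.3 M (mega) counted reads and the deepest 116 M, so that a contig at 1 CPM rested on about 50.3 reads or more. Nothing in the labels names a batch.

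Individuals of an outbred fish differ in the alleles and gene copies that they carry, which are the same in every organ, and in states of the whole body such as infection, hormones or time of day. Genes of the major histocompatibility complex (MHC) are the textbook case of the first kind. Class I molecules present peptides from inside the cell to T cells, nearly all tissues make them, and their genes are among the most variable known in vertebrates. Other levels, such as those of plasma proteins made by hepatocytes, are largely set within an organ.

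Liver and brain varied together. Mean r over the contigs tested was 0.326 and the median was 0.354, with quartiles of 0.048 and 0.639. In the exact permutation test the real pairing gave a higher mean r than each other arrangement (two-sided p = 1.93e-06, the smallest that the arrangements can give). Of the 24799 contigs, 3385 were called together (13.6% of those tested) and 13 were called apart (0.0524%). At an unadjusted p under 0.05 the counts were 6703 together and 193 apart. With Spearman's rho in place of r the counts were 2085 together and 13 apart, and 1966 contigs were called together by both measures. Of the contigs called together, 3250 kept an r of at least 0.5 without the 2 eels farthest from the median liver deviation. Among named contigs 945 were called together (9.24%) and 9 apart (0.088%).

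**Figure D1:**
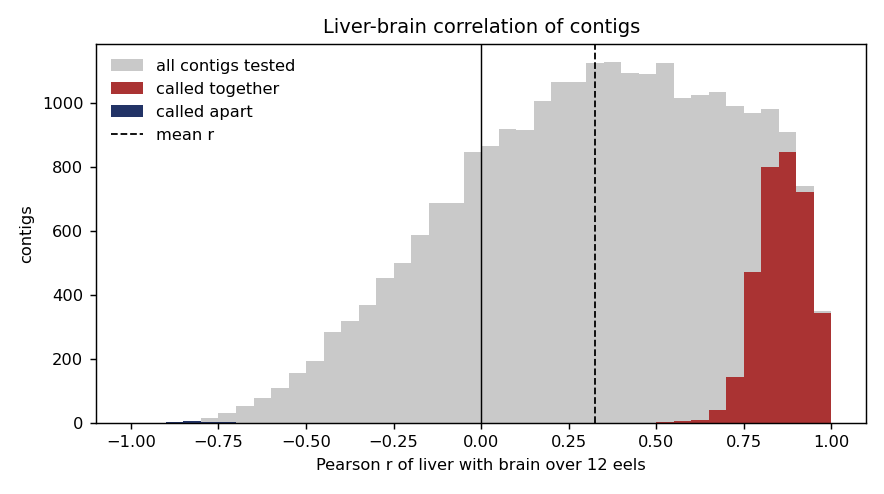
Pearson r of the liver deviation with the brain deviation over 12 eels (x axis) against the number of contigs in each interval (y axis), for the 24799 contigs tested in grey, those called together in red and those called apart in dark blue. Most of the distribution (78.3% of contigs) lies to the right of 0, with its mean (dashed line) at 0.326, and the contigs called together reach 0.996.

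The same sharing showed eel by eel. When the deviations of all contigs tested, each scaled to the same spread, were compared between a liver and every brain, each of the 12 livers was most like the brain of its own eel, and each of the 12 brains was most like the liver of its own eel. Correlation across contigs was between 0.152 (eel 6) and 0.468 (eel 7) for a liver with its own brain, and no higher than 0.0964 for a liver with the brain of any other eel. These values are across contigs, which are not independent replicates. No liver and brain therefore went against the pairing that the labels give.

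**Figure D2:**
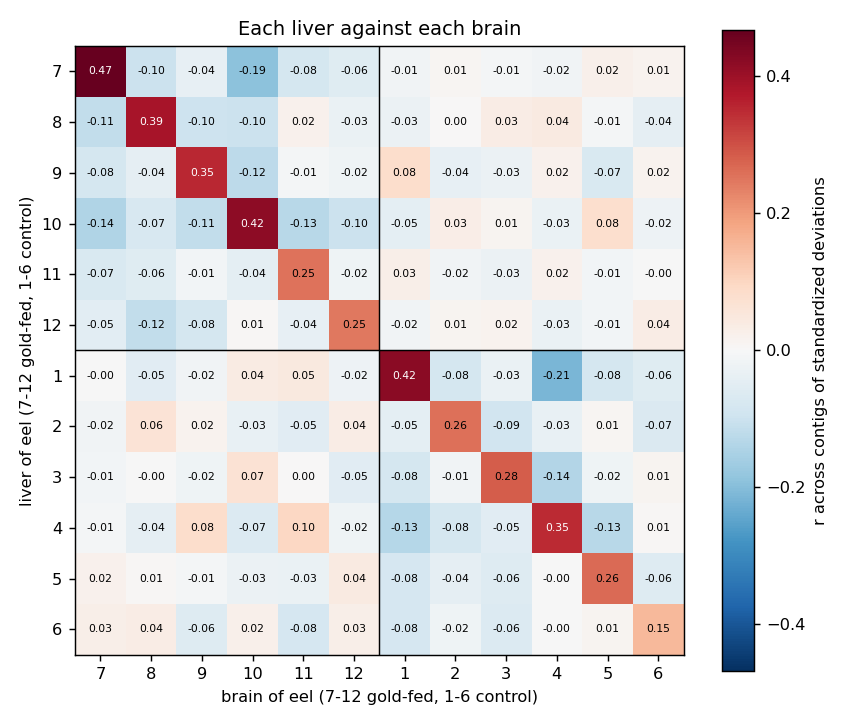
Correlation across contigs of each liver (rows) with each brain (columns), with gold-fed eels 7 to 12 before control eels 1 to 6 and black lines between the groups. The 12 cells on the diagonal, from 0.152 to 0.468, are the highest of their row and of their column.

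The sharing was present in both diet groups. Mean r was 0.339 over the 6 gold-fed eels and 0.277 over the 6 control eels, and whether these differ was not tested. The exact permutation p of mean r was 0.00139 in each group, the smallest that 6 eels allow. Within each group 0 contigs passed the adjusted threshold. With no smaller p available, many contigs would have to reach it together for any to pass. At an unadjusted p under 0.05, 4148 contigs were together and 218 apart in the gold-fed eels, against 3543 together and 269 apart in the control eels.

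The leading axes of variation were also compared between the organs. The first principal component held 15.4% of the variance of liver deviations and 20.2% of that of brain deviations. Eel 10 contributed 65.3% of the brain component, and in liver eels 10 and 7 contributed 19.6% and 18.2%. The eels' scores on the first components of the 2 organs had r = 0.292 (exact permutation p = 0.522, Spearman's rho = 0.168, p = 0.634), and r = -0.47 without the 2 farthest eels. Of the 9 pairs among the first 3 components of each organ, the closest was the first of liver with the second of brain (r = 0.636, exact permutation p = 0.0168, adjusted over the 9 pairs p = 0.151, rho = 0.685, p = 0.01, r = 0.714 without 2 eels). With the first component of each organ removed, mean r was 0.279 and 1082 contigs were still called together, of which 980 were among the 3385.

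Contigs labelled as MHC class I were the most visible group among the named contigs that varied together. The labels are mhc1uba, mhc1uda, mhc1uea, mhc1uha and mhc1uka, together with oncmyk-uba and orla-uaa, whose names follow classical class I genes of rainbow trout and medaka. This group was picked after its values were seen, so its counts are a description. Of its 42 contigs, 39 were tested, and 37 of these were called together and 0 apart by the exact permutation test (unadjusted 38 and 0; by Spearman's rho 35 and 0). The 2 others were mhc1uha.3.8 and oncmyk-uba.15.29, with r of 0.594 and 0.619. Together calls were made for 13.6% of all contigs tested and 9.24% of named contigs. Median r of the class I contigs was 0.956, beside 0.354 over all contigs tested. Their spread between eels was wide, with a median SD of 1.97 log2 units in liver and 1.85 in brain, beside 0.362 and 0.241 over all contigs tested. Contigs of any label that varied widely were also mostly called. Of the 525 with an SD of at least 1 log2 unit in both organs, 393 (74.9%) were called together, with a median r of 0.917. Whether the class I contigs differ from contigs of like spread was not tested. Since these contigs share a gene family, reads could be divided among near-identical sequences, and the level of any one of them is uncertain in that respect. Of the 36 called contigs that were not split into clusters, 32 kept the call without each eel in turn; mhc1uha.1.8 lost it without eel 12, and of oncmyk-uba 1 contig lost it without eel 11, 1 without eel 1 and 1 without eel 3, 6, 10 or 12, with adjusted p up to 0.0805. With the first component removed 22 of the 36 kept the call, and with counts summed by label 10. In the sums mhc1uha kept it (r = 0.895, adjusted exact permutation p = 0.00952) and oncmyk-uba lost it. The other class I labels have 1 contig each, so summing could not change their r.

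Levels of the class I contigs differed between eels by orders of magnitude and matched between the organs of an eel. In livers, mhc1uka was at a lowest of 0.0432, a median of 1.34 and a highest of 132 CPM in gold-fed eels, against 0.507, 2.64 and 91.7 CPM in control eels. In brains it was at 0.0777, 2.05 and 145 CPM in gold-fed eels, against 0.277, 2.43 and 84.4 CPM in control eels. Eels 7 and 6 were the high ones in both organs, and eel 10 was the lowest gold-fed eel and eel 5 the lowest control eel in both, while the diet groups overlapped. For mhc1uka r was 0.987 and rho 0.986 (exact permutation p = 1.93e-06 for each, the smallest possible; adjusted 0.00228 and 0.00319), with r = 0.943 without the 2 farthest eels.

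Another class I contig, mhc1uba, was at 0.778, 21.8 and 105 CPM (lowest, median and highest) in gold-fed livers, against 2.28, 23.01 and 71.4 CPM in control livers. In brains it was at 2.36, 36.7 and 142 CPM in gold-fed eels, against 2.18, 14.2 and 56.7 CPM in control eels (r = 0.981, exact permutation p = 1.93e-06, adjusted p = 0.00228; rho = 0.972, p = 3.86e-06). Here eel 8 was highest among gold-fed eels and eel 6 among control eels, in liver and in brain. The high eels thus differed from contig to contig: oncmyk-uba.10.29 stood at 139 and 119 CPM in the livers of eels 8 and 11 and at 179 and 201 CPM in their brains, and at no more than 15.2 CPM in any other liver and 8.14 CPM in any other brain.

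One class I contig fell into separate clusters of eels, so no r is given for it. This was oncmyk-uba.1.29, at 28.4 and 10.4 CPM in the livers of eels 11 and 12 and 19.9 CPM in that of eel 1, and at 42.5, 25.6 and 27.9 CPM in the brains of the same 3 eels. In the other 9 eels it was at no more than 0.633 CPM in liver and 0.239 CPM in brain. Of the 13 contigs tested that split the eels in both organs by a gap over 0.5 of their range, 12 had the same eels above the gap in liver and brain. The named ones were, besides this contig, RPS13.3.4 (a protein of the small ribosomal subunit; eels 4 and 8 above), TRA2B.6.7 (a splicing factor; eels 3, 8, 10 and 11) and ergic3 (a protein of the early secretory pathway; eels 1, 2 and 11).

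The presence of each class I contig was compared between the organs of an eel. Taking 1 CPM as present, the 39 contigs in 12 eels made 468 combinations, of which 308 were present in both organs, 5 in liver alone, 31 in brain alone and 124 in neither, so that 92.3% were the same in both. The number present in both organs was between 7 (eel 10) and 35 (eels 3 and 11), and 3 contigs were present in both organs of every eel. Across these contigs alone, each liver was most like its own brain (r from 0.843 to 0.987, no higher than 0.347 with the brain of another eel). This is a description and no further support. The contigs share a family and were picked with their liver-brain values seen, so such a match largely follows from the choice. Mean levels in the organs were also close, with a median distance of 0.27 log2 units between liver and brain beside 1.75 over all contigs tested.

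**Figure D3:**
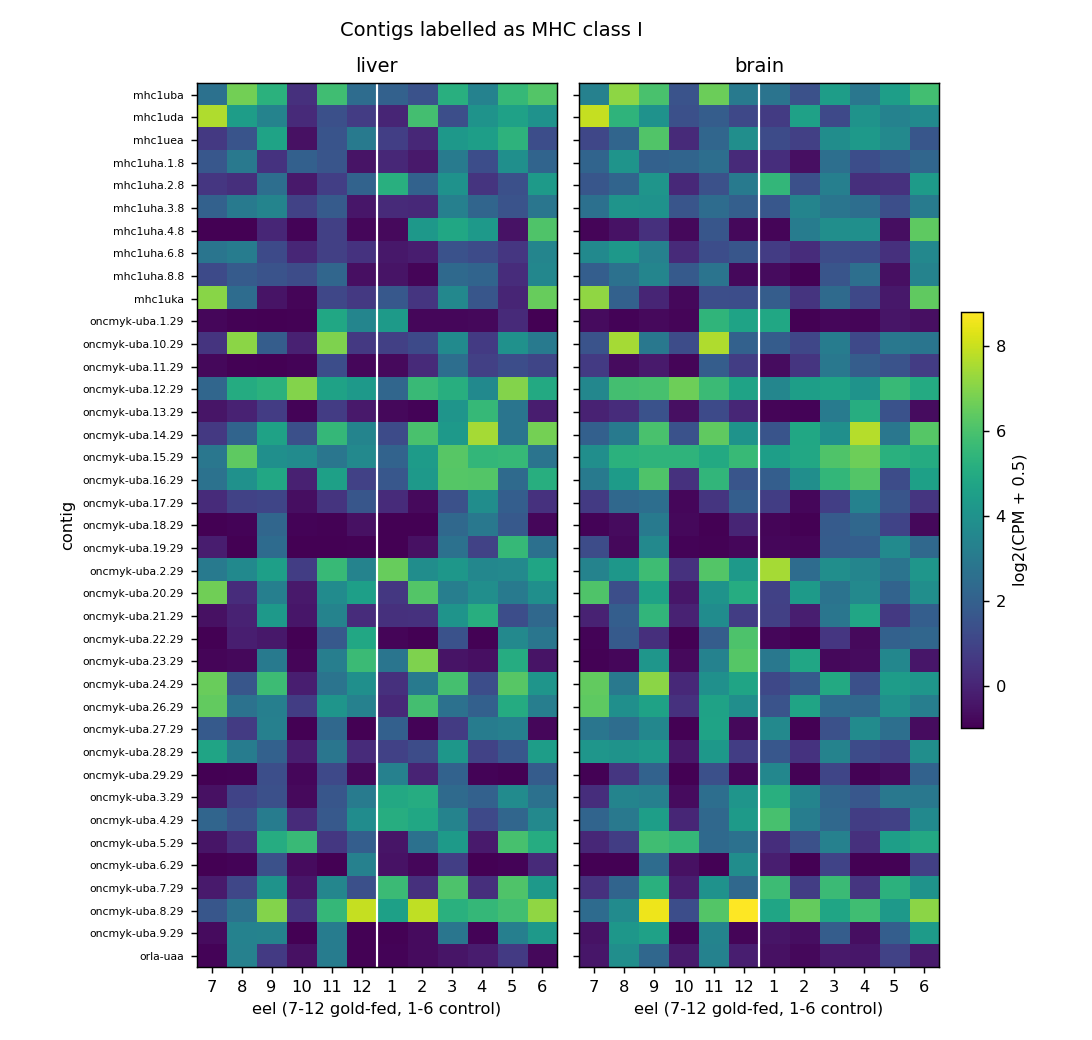
Level, as log2(CPM + 0.5), of the 39 contigs labelled as MHC class I (rows) in the liver (left) and the brain (right) of each eel, gold-fed eels 7 to 12 before control eels 1 to 6. The pattern of bright and dark cells in a column of the left panel recurs in the same column of the right panel; oncmyk-uba.1.29 is bright in eels 11, 12 and 1 in both.

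The summed level of class I contigs varied less than the single contigs. The sum over the 39 was at a lowest of 209, a median of 511 and a highest of 702 CPM in gold-fed livers, against 335, 730 and 837 CPM in control livers. In brains it was at 214, 834 and 1343 CPM in gold-fed eels, against 335, 485 and 774 CPM in control eels. Liver and brain sums had r = 0.52 (exact permutation p = 0.133), rho = 0.154 (p = 0.647) and r = -0.156 without the 2 farthest eels. The SD of the sum was 0.55 log2 units in liver and 0.73 in brain. With the 29 contigs of oncmyk-uba counted as 1, r was 0.43 (exact permutation, adjusted p = 0.451).

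Other genes of antigen presentation formed a list of their own. Of the 10 contigs tested from that list, 0 were called together or apart by the exact permutation test. Together calls were made for 13.6% of all contigs and 9.24% of named contigs, so a count of 0 among 10 is near those shares. At an unadjusted p under 0.05, 0 passed. Spearman's rho and edgeR's shared eel term, a count model described further on, called 0. Median r was 0.0856, beside 0.354 over all contigs tested. Their values are given here after they were seen. Beta-2 microglobulin (b2mg), the constant chain of class I molecules, was at 443, 600 and 739 CPM (lowest, median and highest) in gold-fed livers, against 523, 707 and 1097 CPM in control livers, and at 332, 926 and 1137 CPM in gold-fed brains, against 410, 591 and 794 CPM in control brains (r = 0.0833, adjusted exact permutation p = 0.91). Spread between eels differed among the members, with a median SD of 0.379 log2 units in liver and 0.538 in brain. Over all contigs tested it was 0.362 and 0.241. The contig psb8, an interferon-induced proteasome subunit, had an SD of 0.82 log2 units in liver and 0.80 in brain, with r = 0.105. For nlrc5, in mammals the transactivator of class I genes, the SDs were 0.78 and 0.81, with r = 0.0898. For uba1.2.2 they were 0.121 and 0.119, with r = 0.207. The part of spread in the count of 0 was not tested. The peptide transporter contigs tap1 and tap2a had r of 0.0879 and 0.0545, and cd74, the class II invariant chain, had r = -0.336. The list also holds uba1, which here is the ubiquitin-activating enzyme and not a class I gene. Whether this list differs from the class I labels was not tested.

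Outside MHC, and with split contigs and those of an SD under 0.3 log2 units left out, the named contig of highest r was RS15A, a protein of the small ribosomal subunit. It was at a lowest of 0.537, a median of 29.5 and a highest of 121 CPM in gold-fed livers, against 0.934, 23.4 and 84.7 CPM in control livers. In brains it was at 0.237, 8.52 and 39.7 CPM in gold-fed eels, against 0.696, 6.62 and 32.8 CPM in control eels. Eels 7 and 9 of the gold-fed group and eels 1, 5 and 6 of the control group were at 2.32 CPM or less in both organs, and the other 7 eels were at 12.6 CPM or more in liver and 4.14 CPM or more in brain. For RS15A r was 0.984 (exact permutation p = 4.63e-05, adjusted p = 0.00416), rho was 0.93 (p = 0.00028) and r without the 2 farthest eels was 0.974.

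The 20 named contigs of highest r, among those with an SD of at least 0.3 log2 units in both organs, comprised 12 class I contigs and 8 others. Besides RS15A these were both contigs of TPC2L (a subunit of a vesicle tethering complex), LWA, map1lc3a.3.3 (an autophagosome protein), sod1.2.3, cdk2ap2.3.3 (a partner of a cell cycle kinase) and YPEL3.3.7. Their r was between 0.971 and 0.987 and their r without 2 eels between 0.93 and 0.984, and all 20 kept their call when each eel in turn was left out. With the first component of each organ removed, 13 kept it; TPC2L.1.2, TPC2L.2.2, cdk2ap2.3.3, sod1.2.3, mhc1uda and 2 contigs of oncmyk-uba did not, with r between 0.451 and 0.818 and adjusted p between 0.0802 and 0.473. The contig sod1.2.3, of the copper-zinc superoxide dismutase, was at 21.2, 30.8 and 269 CPM in gold-fed livers, against 36.2, 65.6 and 196 CPM in control livers, and at 3.27, 4.84 and 25.5 CPM in gold-fed brains, against 4.47, 7.57 and 19.7 CPM in control brains. Eels 7 and 10 of the gold-fed group and eel 5 of the controls were the high ones in both organs (r = 0.973, exact permutation p = 0.000353, adjusted p = 0.00921; rho = 0.881, p = 0.00189). When the 3 sod1 contigs were summed, r was 0.4 (adjusted p = 0.345).

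Several named contigs with no second contig of the same spelling of their name also varied together, chosen after their values were seen. EF2, elongation factor 2 of protein synthesis, was at 8.82, 12.2 and 43.4 CPM in gold-fed livers, against 6.07, 9.14 and 33.8 CPM in control livers, and at 5.8, 7.34 and 20.4 CPM in gold-fed brains, against 4.36, 7.16 and 16.1 CPM in control brains. The highest gold-fed eel was eel 12 and the highest control eel was eel 6, in both organs (r = 0.966, exact permutation p = 0.00016, adjusted p = 0.00641, r = 0.78 without the 2 farthest eels). By rho, which was 0.79, EF2 was not called (exact permutation p = 0.00527, adjusted p = 0.0569). Others were cnih1, a cargo receptor of secretion (r = 0.958), PXMP2, a peroxisomal membrane channel (0.955), SMG9, of nonsense-mediated RNA decay (0.941), anapc11, of the anaphase-promoting ubiquitin ligase (0.941), and zfand5, a ubiquitin-binding protein (0.936), with adjusted p between 0.00349 and 0.00909. With the first component of each organ removed, zfand5 kept its call, while SMG9 fell to r = 0.383 (adjusted p = 0.561), anapc11 to 0.64 (0.201), PXMP2 to 0.747 (0.126), cnih1 to 0.786 (0.0907) and EF2 to 0.856 (0.0807). For hsbp1b, a heat shock factor binding protein (r = 0.961), aprt, of purine salvage (0.938), and cyb5r3, a cytochrome b5 reductase (0.932), the call was lost without 3 eels (4, 7 or 10), 1 eel (8) and 4 eels (1, 5, 7 or 11), with adjusted p up to 0.0863.

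**Figure D4:**
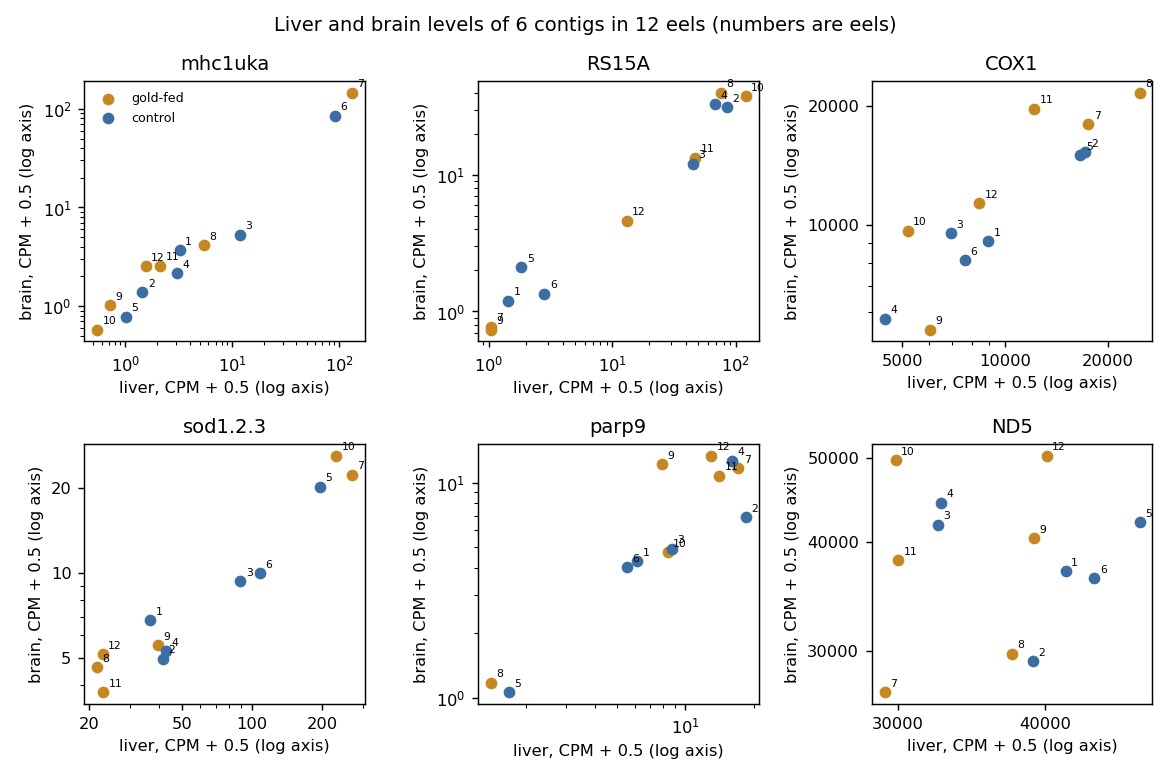
Liver level (x axis) against brain level (y axis), both as CPM + 0.5 on log axes, of 6 named contigs in gold-fed eels (orange) and control eels (blue), each point numbered by eel. The points of mhc1uka, RS15A, COX1, sod1.2.3 and parp9 rise along a line with both diet groups mixed on it, and those of ND5 (r = 0.0524) do not.

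Of 4 contigs of mitochondrially encoded genes tested, 2 were called together, beside 13.6% of all contigs and 9.24% of named contigs. COX1, a core subunit of cytochrome oxidase and among the most abundant transcripts, was at 5185, 10300 and 24830 CPM (lowest, median and highest) in gold-fed livers, against 4429, 8264 and 17220 CPM in control livers. In brains it was at 5413, 14690 and 21650 CPM in gold-fed eels, against 5762, 9303 and 15310 CPM in control eels. Eel 8 was highest and eels 9 and 10 lowest among gold-fed eels in both organs, and eel 4 was lowest among controls in both (r = 0.897, exact permutation p = 0.000457, adjusted p = 0.0103; rho = 0.909, p = 0.000413; r = 0.864 without 2 eels). COX2, another oxidase subunit, had r = 0.817 (exact permutation p = 0.0024, adjusted p = 0.0269). This call was lost without eel 4, 7, 9 or 10, with adjusted p up to 0.163. By rho, which was 0.629, COX2 was not called (exact permutation p = 0.0387, adjusted p = 0.18). ND4 and ND5, subunits of complex I, had r of 0.0743 and 0.0524. ND5 stood at 29230 to 40150 CPM in gold-fed livers, against 32440 to 48160 CPM in control livers, and at 26900 to 50260 CPM in gold-fed brains, against 29220 to 44360 CPM in control brains. This set of 4 was chosen after its values were seen.

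The more a contig varied in both organs, the more often it was called. By the smaller of its liver and brain SDs, 1.21% of contigs in the lowest of 4 equal bins, 3.44% in the second, 9.55% in the third and 40.4% in the highest were called together. Of the 525 contigs with an SD of at least 1 log2 unit in both organs, 393 (74.9%) were called, with a median r of 0.917. Since a small SD leaves little to correlate, these shares describe what could be detected as well as what was shared.

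The share of contigs called is given here by how many contigs carry the name, with no test of the difference. Names were counted as spelled, with letter case kept, so that HIF1A and hif1a count as different names. Together calls were made for 220 of 4409 named contigs with a single contig (4.99%), 410 of 4085 whose name was on 2 or 3 contigs (10.0%) and 315 of 1732 whose name was on 4 or more (18.2%). The spread between eels also grew over these classes, with a median brain SD of 0.168, 0.22 and 0.269 log2 units, and its part in the shares was not tested. Of contigs with only a contig number, 20.8% were called. Counts summed by label gave 2175 called together of 20820 labels (10.4%), and mean r was 0.289.

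Labels whose copies opposed each other in both organs were looked for. Of 1950 named labels with at least 2 contigs tested, 62 had a pair of contigs with r below -0.5 between the copies in liver and in brain, which is the rule by which they were chosen. TPC2L.1.2 was at 5.03 CPM in the liver of gold-fed eel 7 and between 2.03 and 2.81 CPM in livers of eels 8 to 12, while TPC2L.2.2 was at 0.419 CPM in that liver and between 2.57 and 3.57 CPM in those of eels 8 to 12. In brain, eel 7 again had the highest TPC2L.1.2 (16.5 CPM) and the lowest TPC2L.2.2 (1.48 CPM) of its group. The copies had r = -0.869 with each other in liver and -0.881 in brain, while each had r over 0.97 with itself across the organs (0.974 and 0.979, exact permutation p = 1.93e-05 for each).

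As a share of the pair, TPC2L.1.2 made up between 31.0% and 92.3% of the reads in liver and between 23.7% and 91.8% in brain, and an eel's liver and brain shares were a median of 3.84 percentage points apart. Liver and brain shares were also close in the next 4 opposed pairs: contigs of gpatch8 (an RNA-binding domain protein), TAF12 (of the general transcription factor TFIID), RASN (the small GTPase N-Ras) and atp5j (a subunit of ATP synthase). Median distances between an eel's liver and brain shares were 3.48 points for gpatch8, 2.58 for TAF12, 2.32 for RASN and 2.72 for atp5j. As the choice of opposed copies entails, a pair sum varied less than its copies: for TPC2L the SD of the sum was 0.13 log2 units in liver and 0.20 in brain, against 0.45 to 0.71 for the single copies, and r of the sum was 0.595 (exact permutation p = 0.0507; rho = 0.622, p = 0.0451; r = 0.541 without 2 eels). For the other 4 pairs r of the sum ran from 0.0829 for atp5j (exact permutation p = 0.791) to 0.796 for TAF12 (p = 0.00116). The together call was lost without any of 8 eels for atp5j.3.7, 6 for RASN.3.3 and 4 for atp5j.5.7. Both TPC2L contigs, RASN.1.3 and the paired contigs of gpatch8 and TAF12 kept it without each eel in turn. What distinguishes the copies in sequence was not analysed here, and how reads were divided between them cannot be told from the counts.

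**Figure D5:**
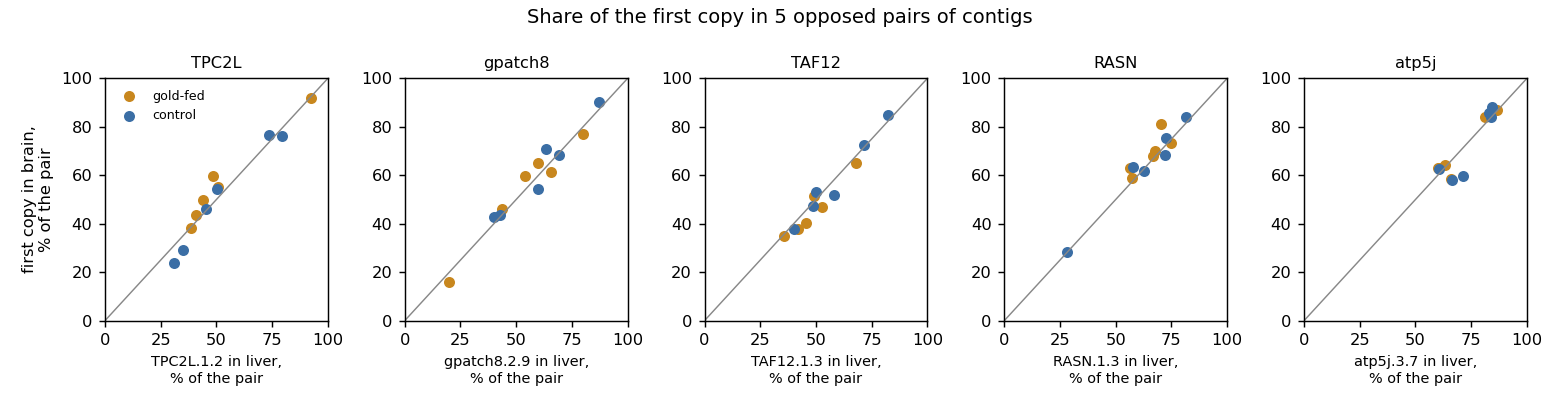
Share of the first copy in the summed CPM of 2 opposed contigs of the same label, in liver (x axis, percent) and brain (y axis, percent), for 5 labels in gold-fed eels (orange) and control eels (blue); the grey line marks equal shares. Points lie along the line in each panel, from 31.0% to 92.3% in liver for TPC2L.

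Ribosomal proteins were the longest of the 19 lists. Of 181 contigs tested 34 were called together (18.8%, beside 13.6% of all contigs and 9.24% of named contigs), from 24 of 80 labels, and 0 apart by the exact permutation test (3 at an unadjusted p under 0.05, 0 by Spearman's rho). Median r was 0.207, below the 0.354 of all contigs. RS3A.2.3, of the small subunit, was at 115, 437 and 766 CPM in gold-fed livers, against 62.5, 307 and 792 CPM in control livers, and at 41.9, 197 and 241 CPM in gold-fed brains, against 23.7, 88.2 and 254 CPM in control brains. Eel 10 was highest and eel 7 lowest among gold-fed eels and eel 2 highest and eel 4 lowest among controls, in both organs (r = 0.967, exact permutation p = 5.79e-06, adjusted p = 0.00266; rho = 0.909, p = 0.000118). The 3 RS3A contigs summed had r = 0.0849 (adjusted p = 0.94). RS18.1.2 ran from 3.59 to 249 CPM in gold-fed livers, against 22.5 to 333 CPM in control livers, and from 2.41 to 79.9 CPM in gold-fed brains, against 2.27 to 170 CPM in control brains (r = 0.94, adjusted p = 0.00493).

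In oxidative phosphorylation, 12 of 75 contigs were called together (16%, beside 13.6% of all contigs and 9.24% of named contigs), from 7 of 40 labels, with a median r of 0.452. They included 3 contigs of COX6A, a subunit of cytochrome oxidase, with r of 0.821 to 0.957, 2 of ndufs6, of complex I (0.873 and 0.925), and 3 of atp5j. COX6A.1.4 was at 5.36, 8.26 and 12.2 CPM in gold-fed livers, against 6.87, 14.5 and 77.8 CPM in control livers, and at 1.19, 1.72 and 2.53 CPM in gold-fed brains, against 1.5, 2.77 and 11.3 CPM in control brains. Control eel 1 stood highest in both organs. Summed by label, COX6A had r = 0.396 (adjusted p = 0.553).

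In the list of oxidative stress and glutathione genes, which code for enzymes that remove reactive oxygen and peroxides, 9 of 52 contigs were called together (17.3%, beside 13.6% of all and 9.24% of named contigs; median r = 0.358) and 0 apart (0 at an unadjusted p under 0.05 and 0 by Spearman's rho). Besides 2 sod1 contigs they were 2 of gpx4a, prdx2.3.3, prdx3.2.2, msrb3.1.4, sod3.3.4 and txn2.2.3. The peroxidase contig prdx2.3.3 was at 10.9, 27.5 and 69.7 CPM in gold-fed livers, against 13.7, 47.9 and 111 CPM in control livers, and at 18.9, 32.4 and 84.9 CPM in gold-fed brains, against 16.4, 44.1 and 83.1 CPM in control brains (r = 0.933, adjusted exact permutation p = 0.00648; rho = 0.895; with the first component removed r = 0.767, adjusted p = 0.0826). Eel 9 was highest and eel 10 lowest among gold-fed eels, and eel 1 highest and eel 2 lowest among controls, in both organs. The lipid peroxide reductase contig gpx4a.1.3 had r = 0.916 (adjusted p = 0.00816). All 9 belong to labels with several contigs, and summed by label r was -0.0229 for gpx4a, -0.359 for prdx3, 0.359 for prdx2 and 0.4 for sod1.

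Among interferon response genes 4 of 28 contigs were called together (14.3%, a share near the 13.6% of all contigs, with a median r of 0.291, beside 0.354): parp9, an ADP-ribosyltransferase of antiviral defence, 2 contigs of ifi44, and adar, an RNA-editing enzyme (r = 0.797). The contig parp9 was at 0.904, 10.2 and 16.5 CPM in gold-fed livers, against 1.18, 6.91 and 17.9 CPM in control livers, and at 0.682, 10.7 and 12.8 CPM in gold-fed brains, against 0.566, 4.14 and 12.2 CPM in control brains. Eel 8 of the gold-fed group and eel 5 of the controls were the low ones in both organs (r = 0.938, exact permutation p = 0.000818, adjusted p = 0.0143, r = 0.701 without those 2 eels). Without eel 8 the adjusted p of r was 0.0506. By rho, which was 0.741, parp9 was not called (exact permutation p = 0.00583, adjusted p = 0.0601). For ifi44.2.3 r was 0.926 (adjusted p = 0.0128), with eels 7 and 11 high among the gold-fed eels in liver (4.29 and 2.94 CPM) and in brain (4.32 and 6.47 CPM). For ifi44.1.3 r was 0.857, a call lost without 3 eels (adjusted p up to 0.113).

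Lists of leukocyte and erythrocyte genes were examined because both organs hold blood cells. The lists also name genes that are not confined to blood cells, such as apoe and nprl3, so their sums do not measure blood alone. Of 36 leukocyte contigs 2 were called together (5.56%), beside 13.6% of all and 9.24% of named contigs. They were lyg, a lysozyme (r = 0.889), and ptprc.1.6, of the leukocyte phosphatase CD45 (r = 0.82). Of 22 erythrocyte contigs 1 was called (4.55%), which was nprl3 (r = 0.836). Median r was 0.234 for the leukocyte list and 0.457 for the erythrocyte list, beside 0.354 over all contigs tested. At an unadjusted p under 0.05 (exact permutation test), 2 leukocyte and 4 erythrocyte contigs were together and 0 apart. The shared eel term of edgeR was called for 4 contigs of each list. The call of ptprc.1.6 was lost without any of 8 eels, with adjusted p up to 0.0899, that of lyg without either of 2 (up to 0.0531) and that of nprl3 without any of 5 (up to 0.152). The summed level of 46 leukocyte marker contigs ranged over 1213 to 7864 CPM in gold-fed livers, against 1817 to 7870 CPM in control livers, and over 371 to 1261 CPM in gold-fed brains, against 476 to 887.5 CPM in control brains. Its liver and brain values had r = 0.32 (exact permutation p = 0.406; rho = 0.105; r = -0.45 without 2 eels). For 26 erythrocyte marker contigs the sums were 480 to 2452 CPM in gold-fed livers, against 1131 to 4298 CPM in control livers, and 554 to 1905 CPM in gold-fed brains, against 688 to 1546 CPM in control brains (r = 0.546, exact permutation p = 0.0869; rho = 0.545; r = 0.511 without 2 eels). In whole organs, more blood cells and more RNA per blood cell cannot be told apart, and the part of blood in any shared contig was not tested.

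Genes of signals that reach the whole body, the clock, glucocorticoids and hormones, were examined next, beside the 13.6% called of all and the 9.24% of named contigs. In the circadian list 3 of 20 contigs were called (15%), all of them contigs of per3, a repressor of the clock. Of these per3.5.5 was at 17.4 to 34.6 CPM in gold-fed livers, against 1.51 to 33.9 CPM in control livers, and at 31.7 to 56.0 CPM in gold-fed brains, against 1.82 to 50.1 CPM in control brains. For this contig control eel 4 alone held the low values, 1.51 CPM in liver and 1.82 CPM in brain, and without it r fell to 0.589 (adjusted p = 0.177), against 0.966 (adjusted p = 0.0307) with all eels. The calls of per3.3.5 and per3.4.5 were lost without eel 4 as well (adjusted p = 0.109 and 0.0621). In these copies eel 4 was the highest eel, at 43.1 CPM in liver and 49.6 CPM in brain for per3.3.5 and at 26.8 CPM in liver and 32.1 CPM in brain for per3.4.5. The per3 contigs summed had r = 0.433 (adjusted p = 0.418). Among glucocorticoid-responsive genes 1 of 26 contigs was called (3.85%), dusp1, a phosphatase of MAP kinases (r = 0.872, adjusted p = 0.0096; rho = 0.818; with the first component removed r = 0.243, adjusted p = 0.783). Among immediate early genes dusp1 and btg1.2.2 were called of 33 (6.06%), the second not without any of 4 eels (adjusted p up to 0.0902). In the list of the thyroid and growth hormone axis 0 of 26 contigs were called by the exact permutation test (3 together and 1 apart at an unadjusted p under 0.05; 0 by Spearman's rho; 3 by edgeR's shared eel term); the highest r was 0.798, for socs2.2.4, an inhibitor of growth hormone signalling.

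The remaining lists each had 1 to 3 calls, beside 13.6% of all contigs and 9.24% of named contigs. Together calls were made for 3 of 19 heat shock and chaperone contigs (2 of CH10, the mitochondrial co-chaperonin, and HS90A), 3 of 32 in metal handling (slc39a7, a zinc transporter, atox1.2.2, a copper chaperone, and tf.1.2), 3 of 39 proteasome contigs (psmb5.1.2, PSD11.2.2 and PRS10.1.2), 2 of 20 in detoxification (hyep, an epoxide hydrolase, and CP2K1.2.2), 2 of 16 in the cell cycle (ccna2 and rrm1), 2 of 29 in hypoxia and glycolysis (HIF1A and LDHB.2.2), 1 of 33 in sterol metabolism (npc2.2.2) and 1 of 24 in the stress response of the endoplasmic reticulum (derl1.2.2). Over the 19 lists, which held 718 different contigs tested, 84 were called together and 0 apart by the exact permutation test (7 apart at an unadjusted p under 0.05, 0 by Spearman's rho). Among the contigs of the 8 lists just named, slc39a7 and psmb5.1.2 kept theirs without each eel in turn, while the others lost theirs without at least 1 eel, from 1 eel each for atox1.2.2, hyep and derl1.2.2 (adjusted p up to 0.0506, 0.0536 and 0.0503) to 11 eels each for CP2K1.2.2, rrm1 and npc2.2.2 (up to 0.153, 0.132 and 0.273). The catalytic proteasome subunit psmb5.1.2 was at 4.39, 9.51 and 14.2 CPM in gold-fed livers, against 4.63, 10.6 and 13.5 CPM in control livers, and at 18.7, 32.2 and 51.9 CPM in gold-fed brains, against 18.9, 31.3 and 41.1 CPM in control brains (r = 0.938, exact permutation p = 1.93e-06, adjusted p = 0.00228; rho = 0.965). Summed with its other contig, r was 0.461 (adjusted p = 0.396), and with the first component removed psmb5.1.2 had r = 0.693 (adjusted p = 0.131). Metal handling was examined because the diet held a metal, and its median r was 0.306.

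The contigs that varied most in liver did not all vary in brain. FUCL5.1.4 and FUCL7.1.5 are labelled as fucolectins, fucose-binding lectins described from eels. FUCL5.1.4 had the largest liver SD, 4.51 log2 units, with 0.13 in brain and r = -0.345 (adjusted p = 0.573). FUCL7.1.5 was at 15.6 to 1329 CPM in gold-fed livers, against 14.4 to 1781 CPM in control livers, and at 0.919 to 1.77 CPM in gold-fed brains, against 1.002 to 1.48 CPM in control brains (r = 0.0663). Of the 3371 contigs whose organ means were over 10-fold apart, 186 (5.52%) were called together, against 3365 of the 21428 within 10-fold (15.7%, with p-values adjusted among those 21428).

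A few called contigs were at a far higher level in liver than in brain. FUCL5.3.4 was at 6.2 to 1423 CPM in gold-fed livers, against 8.71 to 2008 CPM in control livers, and at 1.33 to 2.49 CPM in gold-fed brains, against 1.54 to 3.77 CPM in control brains (r = 0.801, adjusted p = 0.0231). The transferrin contig tf.1.2 was at 45.2 to 379 CPM in gold-fed livers, against 48.3 to 605 CPM in control livers, and at 0.697 to 1.9 CPM in gold-fed brains, against 0.595 to 1.83 CPM in control brains (r = 0.814, adjusted p = 0.0273). Without 1 eel, the call of FUCL5.3.4 was lost for 5 eels (adjusted p up to 0.0684), that of tf.1.2 for 6 (up to 0.0659) and that of PRS10.1.2, a proteasome ATPase, for 5 (up to 0.073). Mean brain level was 0.435% of the liver level for FUCL5.3.4, 0.455% for tf.1.2 and 0.788% for PRS10.1.2. The summed level of 64 hepatocyte marker contigs in brain was a median of 0.378% of that in the liver of the same eel, with 0.266% to 1.33% over eels. The brain of control eel 3 held the highest sum, 1004 CPM, and that of gold-fed eel 10 the next, 337 CPM. The part of liver RNA carried into brain libraries in these 3 correlations was not tested.

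Variation in opposite directions was rare. The adjustment pooled both directions, and the 3385 contigs called together raised the unadjusted p that could pass. Among the 13 contigs called apart it reached 0.0068 (contig_11115, exact permutation test, adjusted p = 0.0497). The error rate among the calls apart alone is therefore not held at the threshold. No adjustment was run for this direction alone, and the contigs are given as a description. Among the 9 named contigs called apart were EHMT1 (a histone methyltransferase), S22BB.3.3 (a solute carrier), crb3 (a cell polarity protein), ifrd2, manea (a glycan-trimming enzyme), n6amt2, rufy3.2.4 and tab1 (a kinase activator of inflammatory signalling), with r between -0.876 and -0.745. Except for crb3, with 0.42, their SD in brain was at most 0.14 log2 units. The contig n6amt2 was at 2.19, 2.66 and 4.58 CPM in gold-fed livers, against 1.97, 2.58 and 4.87 CPM in control livers, and at 10.3, 11.1 and 11.9 CPM in gold-fed brains, against 9.0, 10.8 and 12.1 CPM in control brains. Gold-fed eel 10 was highest in liver and lowest in brain, and so was control eel 6 (r = -0.876, exact permutation p = 0.000266, adjusted p = 0.00801; rho = -0.874, p = 0.000918).

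Each of the 13 contigs called apart had an SD under 0.3 log2 units in at least 1 organ. Among unsplit named contigs with an SD of at least that in both organs and an r of -0.5 or lower without the 2 farthest eels, the 10 of lowest r did not pass the adjusted threshold and are given by their values. GSG1L.1.2, of a glutamate receptor subunit, had r = -0.783 (adjusted p = 0.203), cldn5, a tight junction protein of blood vessels, r = -0.724 (0.114), nbl1, an antagonist of bone morphogenetic proteins, r = -0.672 (0.108), S2533.3.3, a mitochondrial carrier, r = -0.654 (0.151), and ddt.2.2, a tautomerase, r = -0.63 (0.162). The other 5 were homer1 (a synaptic scaffold), gprc5c.3.3, acot12 (an acetyl-CoA hydrolase), rtn1.4.9 and RL22.2.4, with r between -0.547 and -0.451. For homer1 Spearman's rho was -0.804 (exact permutation p = 0.00351, adjusted p = 0.0454). In GSG1L.1.2, gold-fed eel 12 had 6.44 CPM in liver, where the other gold-fed eels had 0.535 to 1.35 CPM, and the lowest gold-fed brain level, 25.9 CPM.

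A count model was run beside the correlation. In edgeR's quasi-likelihood test a term for the eel, common to liver and brain and nested in the diet group, was called for 5385 of the 24799 contigs (21.7%; adjusted p under 0.05). Of the contigs called together by correlation, 3105 were among them, which is 91.7% of the correlation calls and 57.7% of the eel term calls. The term is common to both organs, so it does not test the direction. Of its calls 0 had an r below 0, but the lowest r was 0.0697. A call of the eel term alone therefore does not show that liver and brain varied together. The model also held the spread common to both organs. Over all contigs tested, the median SD of the log deviations was 0.362 in liver and 0.241 in brain. The part of this difference in the calls was not tested. Of the 39 class I contigs 38 were called by the eel term.

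Taking the eel into account also changed the comparison of the organs themselves. Liver against brain, 19744 contigs differed without the eel in the model (79.6%; edgeR, adjusted p under 0.05), of which 9577 had the higher level in liver and 10167 in brain. The fit with the eel as a replicate block called 20929, split into 10025 for liver and 10904 for brain, and the common biological coefficient of variation was 0.26, against 0.377 without the block. With library totals in place of TMM scaling the split between liver and brain was 3141 against 19341, so the directions over all contigs rest on the scaling between the organs.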

How the data were processed

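RNA was extracted with the SV Total RNA kit and libraries were made with TruSeq RNA reagents, per the labels' protocols, with BWA 0.7.12 and SAMtools 1.1 per the submitters' processing notes. For the transcript assembly, its annotation and the counting of stranded or shared reads, the sources used here give no details. The authors deposited raw read counts per contig (all values are whole, and no library total equals another). The descriptions matched each of the 24 columns to a sample, and 0 columns were left over. Liver and brain were paired by the individual named in the labels. CPM were computed with TMM factors within each organ (edgeR 4.0.16, R 4.3.3), and correlations and exact permutations with numpy 2.4.6 in Python 3.11.15. limma 3.58.1 and DESeq2 1.42.0 were alternatives. The scripts were run on simulated counts of independent contigs, as a check of the code and not of error rates in these data.

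Named contigs are those labelled neither contig_ nor LOC. The text names the 20 of highest and 10 of lowest r (SD of at least 0.3 in both organs, absolute r of at least 0.5 without 2 eels, not split), split contigs, up to 3 per list by smallest p, the 5 most opposed labels and the 5 of largest SD in each organ; others are said to be chosen after their values were seen. Members and lists were chosen with earlier results of these data known. List names were matched in any letter case. The test exchanges animals, so its p-values refer to differences among these 12 eels. The values of 1 contig called apart are not reported here.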

Additional observations from a re-analysis of the deposited data

Results flagged for a closer look

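In 64 groups of 6 eels, the gap of the highest or lowest eel to its neighbour was compared with the range of the group (Dixon's 95% limit for 6 samples). For normally distributed values chance flags about 1 group in 20. Most values here were CPM without logs, and many groups were of the 10 contigs of lowest r, chosen from these data. That rate therefore need not apply. In 6 groups an eel stood apart. The summed hepatocyte markers in brain were 337 CPM in gold-fed eel 10, where the other gold-fed eels had 198 to 233 CPM, and 1004 CPM in control eel 3, where the other controls had 198 to 248 CPM. The liver level of GSG1L.1.2 was 6.44 CPM in gold-fed eel 12, with 0.535 to 1.35 CPM in the others, and the brain level of rtn1.4.9 was 253 CPM in gold-fed eel 10, with 51.5 to 94.4 CPM in the others. The brain level of cldn5 was 3.02 CPM in control eel 1, with 1.1 to 1.52 CPM in the others, and the liver level of homer1, a brain-rich transcript, was 2.45 CPM in control eel 3, with 0.388 to 0.567 CPM in the others. The cause of these values was not tested.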

How the results depend on the processing

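Mean r was positive in each setting tried, between 0.26 (no CPM minimum) and 0.366 (organ means within 2-fold), and between 0.308 and 0.339 when each eel in turn was left out. The count of contigs called together and apart, 3385 and 13, became 848 and 5 with a mean of at least 5 CPM in both organs (8704 contigs tested). It was 2085 and 13 with Spearman's rho, 2175 and 10 with counts summed by label (20820 tested) and 1082 and 6 with the first component removed. It was 0 and 0 in the 6 gold-fed eels alone (unadjusted 4148 and 218) and 0 and 0 in the 6 control eels alone (unadjusted 3543 and 269). With the few arrangements of 6 eels, many contigs would have to reach the smallest p for any to pass. Contigs called apart numbered 23 with library totals, 32 without a CPM minimum and 29 with deviations from the organ mean. Without 1 eel in turn the counts were 2097 (without eel 7) to 2847 together, with 2231 without eel 1, and 11 to 21 apart, with 20 without eel 10 and 21 without eel 7. Settings chosen after seeing the data gave 3365 and 15 within 10-fold organ means, 1241 and 8 within 2-fold (6391 tested), and 3375 and 13 without split contigs. The eel term was called for 1525 contigs at 5 CPM, 3509 with summed counts and 8780 by DESeq2's likelihood ratio test, and for 4416 to 5324 without 1 eel. Liver against brain gave 41071 calls with filterByExpr (50455 tested), 19391 to 19606 without 1 eel and 20929 with the replicate block, which was run for this comparison alone, since the correlations rest on the pairing itself. Of the 945 named contigs called together, 100 unsplit ones were followed over these settings. They were picked by the naming rules above or after their values were seen, so their shares do not stand for named calls in general. Of the 100, 64 kept the call without each eel, 76 with Spearman's rho, 48 with the first component removed and 36 when summed by label. Class I contigs made up 36 of the 100, of which 32 kept the call without each eel. Most of those that kept it when summed are the only contig of their label, so that summing could not change their r. Most called contigs of labels with several contigs lost the call when summed. Summing turned r negative for atox1 (-0.225), gpx4a (-0.0229) and prdx3 (-0.359), and removing the first component turned HS90A to -0.0048; the cause was not tested. Signals under 1 CPM rested on fewer reads, and the part of depth in them was not tested.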

Other observations

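Among contigs whose labels carry the name of an open reading frame of an eel herpesvirus, chosen after their values were seen, AngHV1_ORF71.2.2 varied together between liver and brain (r = 0.97, called by the exact permutation test). It was at a lowest of 1.91, a median of 6.31 and a highest of 25.6 CPM in gold-fed livers, against 1.28, 10.5 and 14.8 CPM in control livers. In brains it was at 8.33, 17.9 and 36.9 CPM in gold-fed eels, against 7.52, 21.8 and 26.8 CPM in control eels. Eel 7 was highest among the gold-fed eels and eel 3 lowest among the controls in both organs. AngHV1_ORF124 had r = -0.698 and was not called (adjusted p = 0.0621). Whether these contigs are viral or belong to the eel was not tested.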
